A study of Bos taurus with 10 samples.

Results

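The p53 response and apoptosis genes described here are 37 genes, chosen by name, that cover the regulators and targets of the transcription factor p53, the BCL2 family, death receptors, caspases and inhibitors of apoptosis. Of the 37 genes, 36 had a row among the 20112 genes of the table, and all 36 passed the filter on low values. *TNFRSF10D* was not analysed here. The question was whether base editing guided by sgRNAs goes with a damage or death response in single bovine embryos.

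WT embryos (n = 5) were zygotes injected with mRNA of the cytosine base editor BE3 and cultured to the early blastocyst stage. *SOX2* KO embryos (n = 5) received the same mRNA plus a mixture of sgRNAs designed to turn codons of *SOX2* into early stops. The labels give day 7.0 after fertilization for both groups, and the text of the study gives a slightly later time. All 10 embryos were produced in vitro from oocytes of abattoir ovaries, and all carried BE3, so a response to injection or to the editor alone is shared by both groups and cannot be seen in the comparison. Editing at *SOX2* and the loss of SOX2 itself occur in the same embryos and cannot be told apart. Embryos without injection were not analysed here. Injection was at the zygote stage and the RNA came from early blastocysts days later. A response that had passed by then, or embryos lost before that stage, cannot be seen. mRNA levels also do not show the activity of the p53 and caspase proteins. Each library came from 1 whole blastocyst, so fewer cells of a type and less RNA per cell cannot be told apart either.

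p53 is held at a low level by MDM2 and MDM4, and DNA damage releases it from them. It then raises genes that halt the cell cycle, such as *CDKN1A*, genes of DNA repair and metabolism, and genes that trigger apoptosis, such as *BAX*, *BBC3* and *PMAIP1*. In the mitochondrial pathway of apoptosis, BH3-only proteins neutralise anti-apoptotic members of the BCL2 family, BAX and BAK open the outer membrane, and released cytochrome c assembles with APAF1 to activate caspase 9. BE3 converts cytosine to uracil in DNA without a double-strand break, carries an inhibitor of the enzyme that removes uracil, and nicks the strand that is not edited. Some cell death is common in blastocysts produced in vitro.

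Expression is given as normalized read counts, which are the reads of a gene divided by a size factor for each embryo. Depth was 2223670 to 5134855 reads per embryo in WT and 2578284 to 4337342 in *SOX2* KO (exact permutation test, two-sided, p = 0.349). Between 15919 and 18092 genes had at least 1 read in a WT embryo and between 17987 and 19813 in a *SOX2* KO embryo (exact permutation test, two-sided, p = 0.0159), and the part of this difference in the values of genes with few reads was not tested. *RN18S1*, an 18S ribosomal RNA gene, took 26.4% to 37.0% of the reads of WT embryos and 32.5% to 45.0% of those of *SOX2* KO embryos (exact permutation test, two-sided, p = 0.0635). Reads carry no molecular identifiers, and up to 3 reads are treated as the floor. Markers of the trophectoderm, the outer layer of a blastocyst, had sums between 27078 and 39771 in WT and between 37013 and 49661 in *SOX2* KO, with 0 of 12 called. Of 9 epiblast markers 5 were called lower in *SOX2* KO, as were 3 of 6 markers of the primitive endoderm. Markers of cumulus cells, which surround the oocyte, had sums between 11.9 and 62.9 in WT and between 33.7 and 72.6 in *SOX2* KO. *SOX2* mRNA, the target of the sgRNAs, overlapped between the groups at 78.2 ± 14.1 and 56.6 ± 23.2 (mean ± SD, n = 5 each; limma, log2 fold change -0.55, adjusted p = 0.167), and edited bases are not visible in a table of this kind. The study reports genotyping the sequenced embryos from a part of their cDNA, and a strongly reduced SOX2 signal in immunostained knockout blastocysts.

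Of the 36 genes, 0 were called higher and 1 was called lower in *SOX2* KO embryos. A call needed a limma adjusted p of 0.05 or less over all 20056 genes tested together with a 2-fold difference in either direction. Over all genes, 8.93% were called higher and 1.16% lower, or 10.1% in either direction. The adjusted p alone was passed by the same 1 of 36 members, against 13.6% of all genes (10.4% higher and 3.20% lower), and 8 of the 36 had an unadjusted p of at most 0.05, against 32.4%. The members were expressed more highly than most genes, at a median level of 61.2 normalized read counts over the 10 embryos against 17.0. Of the members, 15 had a mean of 100 or more, and 3.63% of all genes at that level were called in either direction. Log2 fold changes of the members ran from -1.11 to 1.33 with a median of -0.02, while the median over all genes was 0.25. They were above 0 in 17 members and below 0 in 19, where 62.9% of all genes were above 0. DESeq2 and edgeR on the recovered reads each called 0 members higher and 1 lower.

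**Figure D1:**
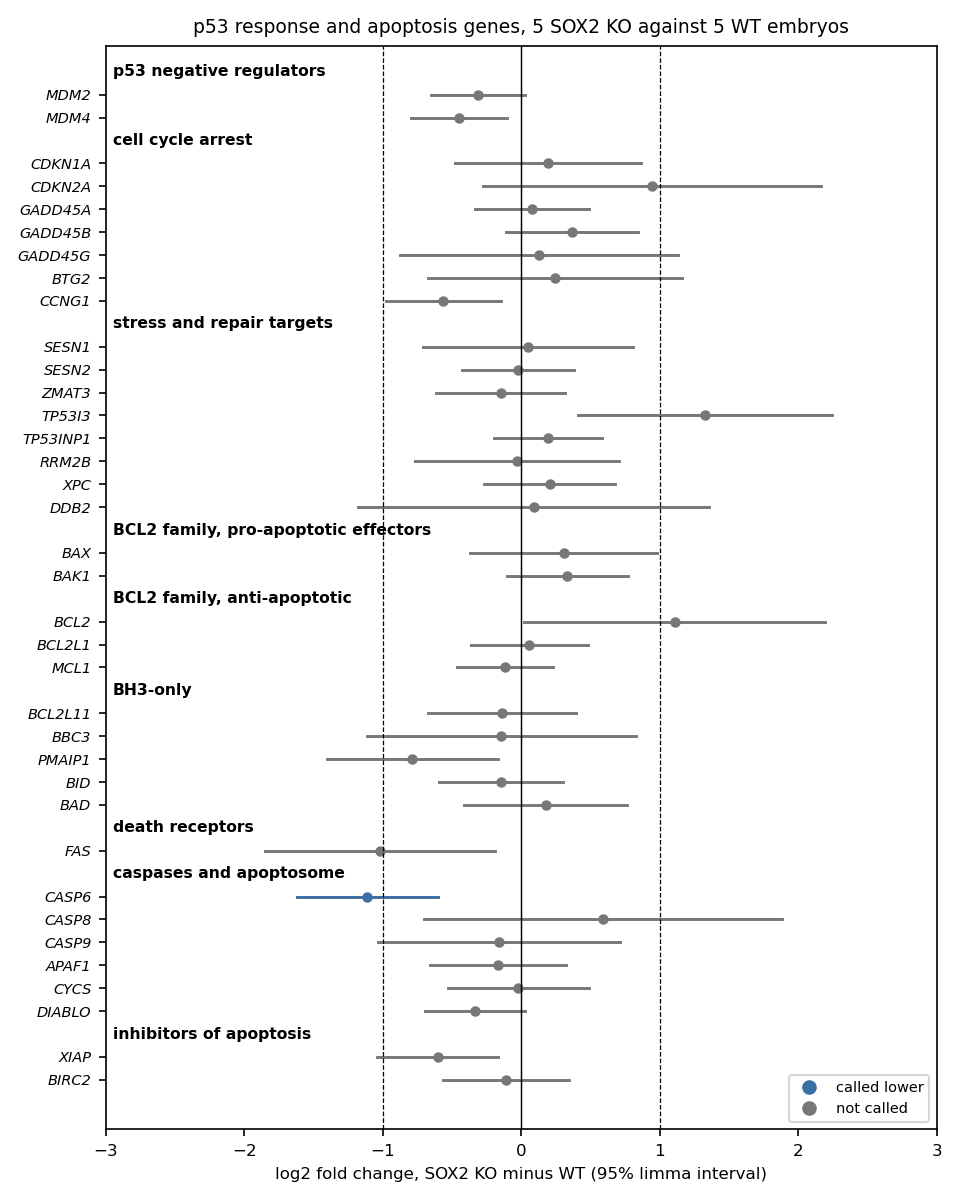
Log2 fold change (*SOX2* KO minus WT, x axis) of log2(normalized read count + 1) for each of the 36 genes, grouped by role, with its 95% limma interval; dashed lines mark a 2-fold change. *CASP6* is the only gene called, and the intervals of 29 genes end below a 2-fold rise.

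The size of change that 5 embryos against 5 leave possible was read from the 95% limma interval of each gene, which is not adjusted for the number of genes. In 29 of the 36 genes the interval ended below a 2-fold rise, against 48.5% of all genes. In 23 of the 36 it lay within 2-fold in both directions, against 35.2% of all genes. The 7 genes for which a 2-fold rise lay within the interval were *CDKN2A*, *GADD45G*, *BTG2*, *TP53I3*, *DDB2*, *BCL2* and *CASP8*. Of these, *CDKN2A*, *DDB2*, *BCL2* and *CASP8* had at most 12 reads in any embryo. At a mean from 1 to under 10, where these 4 genes lie, 14.1% of all genes were called higher, and the median SE of the log2 fold change was 0.59 against 0.18 at a mean of 100 or more. In 0 of the 36 genes did all 5 *SOX2* KO embryos lie above, or all 5 below, the 5 WT embryos, whereas 6.41% of all genes lay wholly above and 2.76% wholly below.

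**Figure D2:**
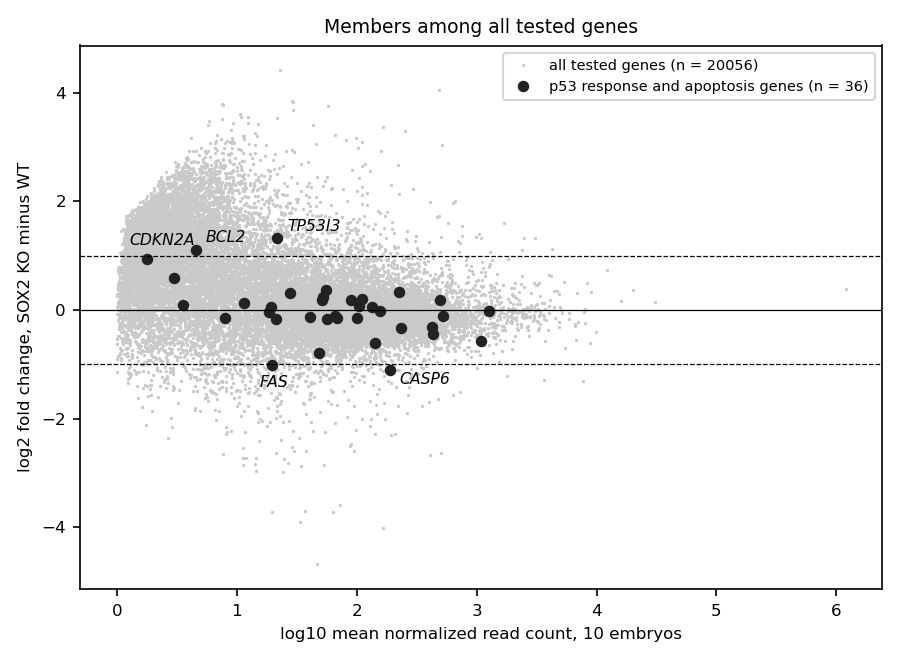
Log2 fold change (y axis) against the log10 mean normalized read count over the 10 embryos (x axis) for the 20056 tested genes (grey) and the 36 p53 response and apoptosis genes (black); dashed lines mark a 2-fold change. The members lie between -1.11 and 1.33, while genes with few reads spread up to 4.41.

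The genes that hold p53 down were not called. *MDM2*, which encodes the ubiquitin ligase that degrades p53 and is itself a p53 target, had normalized read counts of 511, 421, 424, 392 and 611 in WT and of 325, 309, 470, 393 and 398 in *SOX2* KO embryos. The groups overlapped, with ko1 and ko2 below the WT range and the rest inside it (limma, log2 fold change -0.31, 95% interval -0.65 to 0.03, adjusted p = 0.190). *MDM4*, its partner, had 585, 537, 502, 372 and 474 in WT and 375, 413, 307, 444 and 278 in *SOX2* KO embryos (limma, log2 fold change -0.45, SE 0.17, adjusted p = 0.0754).

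The genes of cell cycle arrest, not all of which are p53 targets, had mixed values. *CDKN1A*, the p21 inhibitor of cyclin-dependent kinases and the best known target of p53, had 61.1, 31.1, 74.6, 106 and 178 in WT and 106, 73.9, 100.004, 62.4 and 108 in *SOX2* KO embryos. The *SOX2* KO values all lay inside the WT range, which spanned 5.70-fold, and the means were 90.2 and 90.1 (limma, log2 fold change 0.19, 95% interval -0.48 to 0.86, adjusted p = 0.713). *GADD45A*, *GADD45B* and *GADD45G*, stress sensors that bind cell cycle kinases, differed by 0.08, 0.36 and 0.13 on the log2 scale (limma, adjusted p = 0.823, 0.276 and 0.882). *BTG2*, an antiproliferative gene, spanned 5.41-fold within WT and 7.29-fold within *SOX2* KO embryos, with a log2 fold change of 0.24 (limma, adjusted p = 0.732). *CCNG1*, the p53 target cyclin G1, had 1067, 1179, 874, 1555 and 1796 in WT and 609, 849, 1144, 770 and 955 in *SOX2* KO. Its *SOX2* KO embryos ko3 and ko5 reached into the WT range (limma, log2 fold change -0.56, SE 0.20, adjusted p = 0.0622), and DESeq2 and edgeR gave adjusted p of 0.0490 and 0.0395. *CDKN2A*, which encodes the tumour suppressors p16 and ARF, had 0, 0, 2, 1 and 2 reads in WT and 5, 1, 3, 0 and 3 in *SOX2* KO embryos, too few to compare.

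Among the targets in stress metabolism and repair, *TP53I3* came closest to a rise. The gene encodes a quinone oxidoreductase linked to oxidative stress. It had 12.2, 2.97, 7.95, 21.8 and 22.4 normalized read counts in WT and 30.1, 40.9, 27.9, 18.1 and 33.4 in *SOX2* KO embryos. Apart from ko4, every *SOX2* KO embryo was above every WT embryo. The log2 fold change was 1.33 with an SE of 0.44, resting on 92 WT and 133 *SOX2* KO reads, and the adjusted p of limma was 0.05003, just above the threshold. The gene passed both thresholds without a filter on low values (limma, adjusted p = 0.04996), without nc4, nc5 or ko4 (limma, adjusted p = 0.0404, 0.0370 and 0.0268) and with scaling by the median log ratio (limma, adjusted p = 0.0433). It did not pass without nc2, the WT embryo with the lowest value (limma, log2 fold change 0.93, adjusted p = 0.118), with quantile normalization (limma, adjusted p = 0.107) or with the percentage of reads on *RN18S1* in the fit (limma, adjusted p = 0.328), and DESeq2 and edgeR gave adjusted p of 0.0642 and 0.102. In all it was called in 2 of the 10 alternatives and in 3 of 10 when single embryos were left out. The other 7 genes of this role had log2 fold changes between -0.15 and 0.21. *SESN1* and *SESN2*, sestrins that restrain growth signalling under stress, had 0.05 and -0.02, *ZMAT3*, which encodes an RNA-binding protein, had -0.15, and *TP53INP1*, a stress gene of autophagy and cell death, had 0.19. *RRM2B*, the p53-inducible ribonucleotide reductase subunit, had -0.03, and *XPC* and *DDB2*, which recognise damaged bases in nucleotide excision repair, had 0.21 and 0.09. Their adjusted p in limma ran from 0.494 to 0.965.

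**Figure D3:**
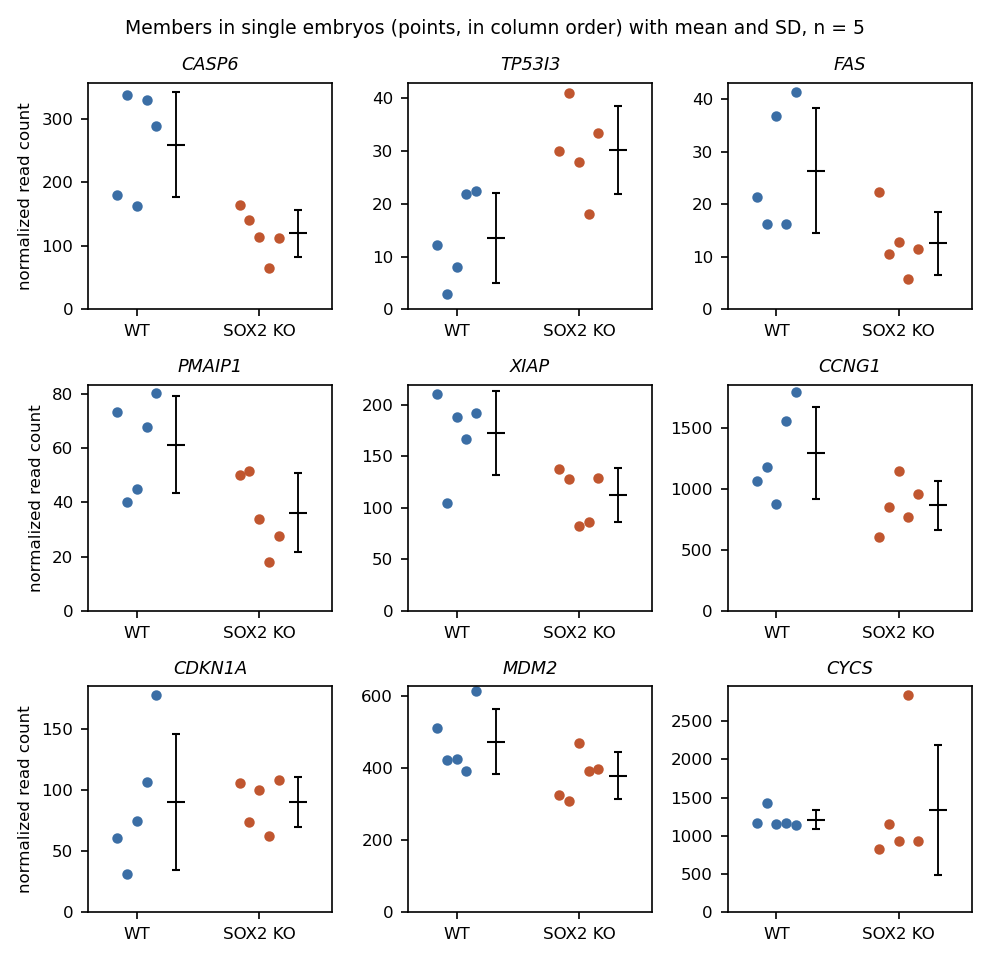
Normalized read counts (y axis, from 0) of 9 genes in the single embryos of each group (points, in column order from left to right) with the mean and SD (n = 5, black). *CASP6* is lower and *TP53I3* higher in most *SOX2* KO embryos, *CDKN1A* of *SOX2* KO lies inside the WT range, and *CYCS* is set apart by the embryo ko4.

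In the BCL2 family no gene was called. *BAX*, an effector that opens the mitochondrial outer membrane and a p53 target, had 30.5, 16.3, 31.8, 19.4 and 23.0 in WT and 18.9, 35.7, 30.2, 20.5 and 50.7 in *SOX2* KO embryos. The ranges overlapped (limma, log2 fold change 0.31, 95% interval -0.37 to 0.98, adjusted p = 0.534). *BAK1*, the other effector, had 202 ± 52.5 in WT and 250.4 ± 55.4 in *SOX2* KO (mean ± SD, n = 5 each; limma, log2 fold change 0.33, adjusted p = 0.277). The anti-apoptotic genes *MCL1* and *BCL2L1* differed by -0.12 and 0.06 on the log2 scale (limma, adjusted p = 0.657 and 0.870). *BCL2*, which gave the family its name, had 3, 2, 4, 1 and 4 reads in WT and 8, 3, 5, 4 and 10 in *SOX2* KO embryos. Its log2 fold change of 1.11 (limma, SE 0.52, adjusted p = 0.148) came from 14 and 30 reads, and all genes with a mean from 1 to under 10 had a median log2 fold change of 0.93.

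Of the 5 BH3-only genes, which sense damage and start the mitochondrial pathway, 0 were called and 4 had a log2 fold change below 0. *PMAIP1*, which encodes the p53 target NOXA, had 73.3, 40.0, 44.7, 67.6 and 80.3 in WT and 50.1, 51.5, 33.7, 18.1 and 27.7 in *SOX2* KO embryos. Its interval reached from -1.40 to -0.17 (limma, log2 fold change -0.79, adjusted p = 0.0781), and edgeR gave an adjusted p of 0.0467. *BBC3*, which encodes the p53 target PUMA, had 16.8, 7.42, 5.97, 6.22 and 5.90 in WT and 5.57, 5.28, 5.81, 6.57 and 13.8 in *SOX2* KO embryos. A single embryo was high in each group (limma, log2 fold change -0.14, adjusted p = 0.861). *BCL2L11*, *BID* and *BAD*, which link growth factor loss, death receptors and survival kinases to this pathway, differed by -0.14, -0.15 and 0.18 on the log2 scale (limma, adjusted p = 0.740, 0.665 and 0.697).

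*CASP6*, an executioner caspase that cleaves nuclear lamins, was the single gene called. It had 180, 337, 162, 329 and 288 normalized read counts in WT and 164, 141, 114, 64.9 and 113 in *SOX2* KO embryos. Only the *SOX2* KO embryo ko1 reached above the lowest WT embryo, nc3. The level fell from 259 ± 82.8 to 119 ± 37.0 (mean ± SD, n = 5 each; limma, log2 fold change -1.11, SE 0.24, adjusted p = 0.00714). DESeq2 and edgeR gave -1.12 and -1.21 on the log2 scale (adjusted p = 0.00109 and 0.00311). Without ko4, the embryo with the lowest value, the fold threshold was not reached (limma, log2 fold change -0.91, adjusted p = 0.00858). The call was also lost when the percentage of reads on *RN18S1* entered the fit (limma, log2 fold change -0.96, adjusted p = 0.156), which called 220 genes in all against 2024. Epiblast markers had sums between 2585 and 3088 in WT and between 1225 and 1636 in *SOX2* KO, those of the primitive endoderm between 1180 and 1502 and between 909 and 1032. The part of these cells in the lower *CASP6* was not tested.

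The other genes of the death pathways were not called. *FAS*, the death receptor that p53 can induce, had 21.4, 16.3, 36.8, 16.3 and 41.3 in WT and 22.3, 10.6, 12.8, 5.75 and 11.5 in *SOX2* KO embryos. Only ko1 reached the WT range (limma, log2 fold change -1.02, SE 0.40, adjusted p = 0.0867), and of the alternatives run, quantile normalization alone took the gene past both thresholds (limma, log2 fold change -1.33, adjusted p = 0.0328). *CASP8*, the initiator caspase below death receptors, had 12 reads in WT and 17 in *SOX2* KO embryos. *CASP9*, the initiator caspase of the mitochondrial pathway, and *APAF1*, its scaffold, differed by -0.16 and -0.17 on the log2 scale (limma, adjusted p = 0.826 and 0.657). *CYCS*, which encodes cytochrome c, had 1169, 1430, 1152, 1164 and 1139 in WT and 823, 1159, 935, 2840 and 937 in *SOX2* KO embryos. The 5 WT values spanned 1.26-fold, and ko4 alone raised the span in *SOX2* KO to 3.45-fold. The log2 fold change was -0.02 with all embryos and -0.33 without ko4 (limma, adjusted p = 0.965 and 0.102). Cytochrome c has similar gene copies in mammalian genomes, and the counting could have split reads between them. *DIABLO*, which is released with cytochrome c and blocks inhibitors of apoptosis, had a log2 fold change of -0.33 (limma, adjusted p = 0.190).

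Of the inhibitors of apoptosis, *XIAP*, which binds caspases directly, had 211, 105, 188, 167 and 192 in WT and 138, 128, 82.6, 86.3 and 129 in *SOX2* KO embryos. Apart from nc2, every WT embryo was above every *SOX2* KO embryo (limma, log2 fold change -0.60, SE 0.21, adjusted p = 0.0590), and DESeq2 and edgeR gave adjusted p of 0.0431 and 0.0278. *BIRC2*, which encodes cIAP1, had a log2 fold change of -0.11 (limma, adjusted p = 0.758).

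Single embryos of a group differed from each other in many of these genes. Averaged over the 36 genes, log2(normalized read count + 1) was 5.81, 5.66, 5.93, 5.86 and 6.16 in WT and 6.05, 5.85, 5.94, 5.63 and 5.97 in *SOX2* KO embryos, and the groups overlapped. Over all tested genes the same mean lay between 3.93 and 4.21 in WT and between 4.11 and 4.78 in *SOX2* KO. The WT embryo nc5 was the highest of its group in 11 of the 36 genes, among them the p53 regulator *MDM2* and the targets *CDKN1A*, *BTG2*, *CCNG1*, *ZMAT3*, *TP53I3* and *DDB2*. The WT embryo nc2 was the lowest in 12, among them *CDKN1A*, *BTG2*, *SESN1*, *SESN2*, *TP53I3* and *TP53INP1*. The library of nc5 was the largest in WT and that of nc2 the smallest, and the part of depth in this order was not tested. In *SOX2* KO, ko4 was the lowest in 14 of the 36 genes and the highest in 8. For members with a mean of 100 or more, the median SD over embryos was 0.34 in WT and 0.32 in *SOX2* KO on the log2 scale, against 0.27 for all genes of that level in both groups.

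**Figure D4:**
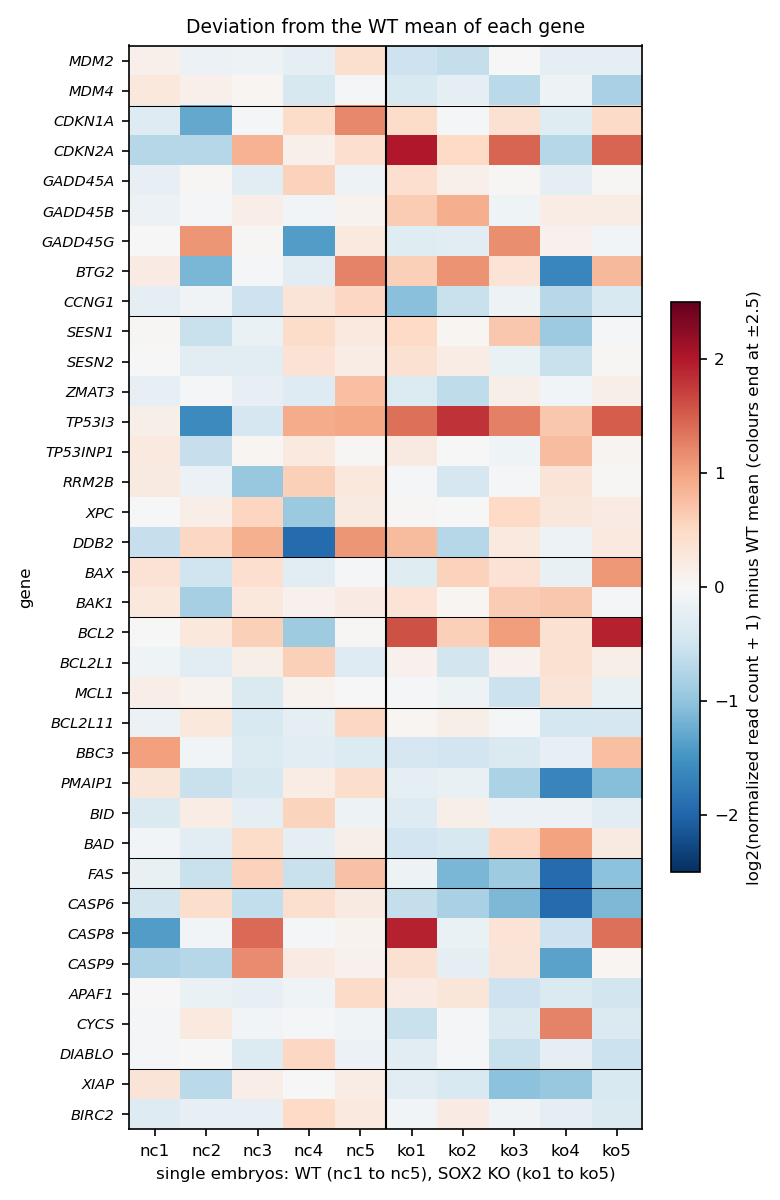
Log2(normalized read count + 1) of the 36 genes (rows, lines separate the roles) in each WT (nc1 to nc5) and *SOX2* KO (ko1 to ko5) embryo (columns), as the deviation from the WT mean of the gene. In *CASP6* 4 of 5 *SOX2* KO embryos lie below all WT embryos and in *TP53I3* 4 of 5 lie above them, while in 0 of the 36 genes do the groups separate fully.

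The wider p53, apoptosis and DNA repair pathways were followed in lists of 135 other genes, of which 128 were tested. Of these, 2 (1.56%) were called higher, against 8.93% of all genes, and 0 lower, against 1.16%. The adjusted p was passed by 14 (10.9%), against 13.6% of all genes. *EDA2R*, a receptor of the tumour necrosis factor family and p53 target, was called higher on 3 reads in WT and 16 in *SOX2* KO (limma, adjusted p = 0.0481). *CASP14*, a caspase of skin differentiation, was called higher on 1 read and 19 reads (limma, adjusted p = 0.0467). Both calls rest on few reads, and neither held with quantile normalization (limma, adjusted p = 0.357 and 0.242). Among the 9 alternatives that tested them, *EDA2R* was called in 2 and *CASP14* in 4. With single embryos left out they were called in 3 and 2 of 10 fits. Of the 24 other p53 targets tested, 12 had a log2 fold change above 0 and 12 below, and *TP53INP2*, an autophagy gene, passed the adjusted p without a 2-fold rise at 85.5 ± 39.5 in WT and 148 ± 18.4 in *SOX2* KO (mean ± SD, n = 5 each; limma, log2 fold change 0.91, adjusted p = 0.0276). Among 9 other BCL2 family genes, *BNIP3L*, which marks mitochondria for removal, passed the adjusted p at -0.80 on the log2 scale (limma, adjusted p = 0.0176). The 24 other caspases, inhibitors of apoptosis and death receptor genes leaned up, with 15 above 0 and 9 below. Their median was 0.34, against 0.25 over all genes, and 1 of the 24 (4.17%) passed the adjusted p. With the filter at a mean of at least 10, 15 of them were tested, 9 were below 0 and the median was -0.18.

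Of the 18 tested p53 regulators and DNA damage kinases 17 had a log2 fold change below 0, with a median of -0.28. *CHEK1*, the checkpoint kinase of stalled replication, was the only one of the 18 to pass the adjusted p (5.56%, against 13.6% of all genes). It had 240.4, 353, 237, 355 and 256 in WT and 138, 185, 136, 186 and 120 in *SOX2* KO, so that every *SOX2* KO embryo was below every WT embryo (limma, log2 fold change -0.91, adjusted p = 0.00371).

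**Figure D5:**
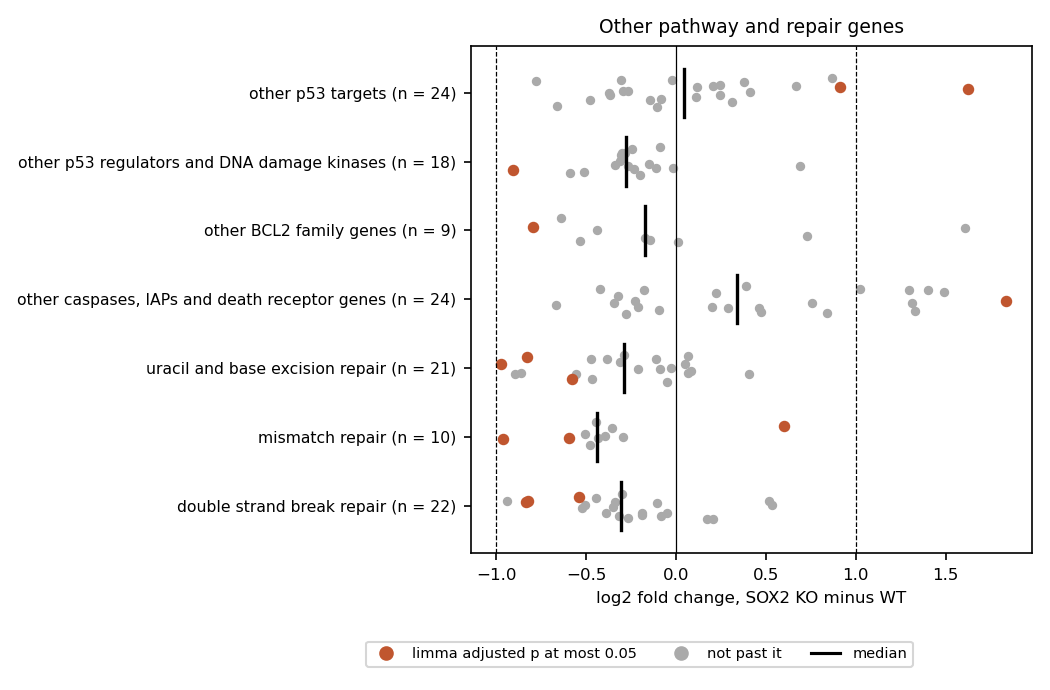
Log2 fold change (x axis, *SOX2* KO minus WT) of the 128 other tested genes of the p53, apoptosis and DNA repair pathways by list; points in orange passed the limma adjusted p, black bars are medians and dashed lines mark a 2-fold change. The medians of the repair lists lie between -0.44 and -0.29.

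Genes of uracil and base excision repair handle the base that BE3 makes. Of the 21 tested genes 16 had a log2 fold change below 0, with a median of -0.29. The adjusted p was passed by 3 (14.3%, against 13.6% of all genes), without a 2-fold fall. *UNG*, the glycosylase that removes uracil from DNA, had 158, 252, 117, 197 and 145 in WT and 77.9, 72.6, 77.9, 117 and 85.3 in *SOX2* KO embryos. Only ko4, at 117.47, reached the lowest WT embryo, nc3, at 117.34 (limma, log2 fold change -0.97, SE 0.21, adjusted p = 0.00618). With the percentage of reads on *RN18S1* in the fit its log2 fold change was -0.76 (limma, adjusted p = 0.173). The other 2 genes were *APEX1* and *APEX2*, which encode endonucleases that cut the site left without a base, at -0.58 and -0.83 on the log2 scale (limma, adjusted p = 0.0310 and 0.0465). *APEX1* passed the adjusted p in 9 of the 10 alternatives and *APEX2* in 4. With single embryos left out, each passed it in 3 of 10 fits.

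Of 10 mismatch repair genes 9 had a log2 fold change below 0, with a median of -0.44. The adjusted p was passed by 3 of the 10 (30%, against 13.6% of all genes), 2 lower and 1 higher. *RFC1*, the large subunit of the clamp loader, passed the adjusted p at -0.60 on the log2 scale (limma, adjusted p = 0.0487). It passed in 3 of the 10 alternatives and in 3 of 10 fits that left out 1 embryo. Among 22 genes of double-strand break repair, which also serve replication, 18 had a log2 fold change below 0, with a median of -0.31. *BRCA1*, *PALB2* and *FANCI* passed the adjusted p at -0.54, -0.84 and -0.82 on the log2 scale (limma, adjusted p = 0.0217, 0.0187 and 0.0322). They passed it in 9, 9 and 7 of the 10 alternatives, and in 6, 9 and 4 of 10 fits that left out 1 embryo. These 3 are 13.6% of the 22 genes, the same share as over all genes. Apart from *UNG*, *EDA2R* and *CASP14*, the genes named from these lists were picked after their values were seen. The medians of the kinase list and the 3 repair lists were below 0 under each of the 10 alternatives of scaling, filter, pseudocount, covariate and test. Scaling by the median log ratio, which moved the median of all genes from 0.25 to 0.34, gave -0.18 for the kinase list, -0.19 for base excision repair, -0.34 for mismatch repair and -0.21 for double-strand break repair. In the main fit, all genes with a mean of 100 or more had a median log2 fold change of -0.11. The kinase list had -0.28 in that fit, base excision repair -0.29, mismatch repair -0.44 and double-strand break repair -0.31. Scaling by the median log ratio is set by those well expressed genes, so -0.11 is not on the scale of the list medians under it.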

How the data were processed

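Single blastocysts were sequenced with Smart-seq2, a full-length protocol that primes on poly(A) tails. The authors used Trimmomatic for trimming, HISAT2 for alignment to the genome build ARS-UCD1.2 and featureCounts for counting, and deposited a normalized signal, the counts divided by a size factor of DESeq2. The annotation release, the strand setting and the handling of shared reads are not given in the sources used here, so paralogs and overlapping genes could share reads. Each of the 201120 values (100%) was a whole number of steps of its embryo (tolerance 0.01 reads), which gave back the reads. The lowest total of a gene was 11 reads.

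Genes with a mean of 1 or more (20056) were tested with limma 3.58.1 (trended eBayes, R 4.3.3) on log2(normalized read count + 1), with no covariate and with Benjamini-Hochberg adjustment over all of them. A fold change on this scale understates that of genes with few reads. Alternatives were DESeq2 1.42.0 and edgeR 4.0.16 (quasi-likelihood) on the reads, pseudocounts of 0.1 and 5, scaling to equal totals, by the median log ratio over well expressed genes (mean of 100 or more) or by quantiles, other filters, a covariate for *RN18S1* and leaving out each embryo. Tested on simulated data with 200 genes changed 4-fold, limma recovered 191 with 8 false calls among 19436 genes, DESeq2 196 with 9 among 20112 and edgeR 193 with 10 among 19436. The changed genes were drawn only from those above a set mean of reads, and the dispersion was capped. Recovery of 2-fold changes and of genes with few reads was not tested.

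Columns were assigned to groups by name. The labels do not say whether embryos shared a culture or a sire, so p-values measure the spread between these embryos. The members and lists were chosen with earlier results of these data known. All members could be named, as could genes of other lists that were called and *UNG*. Sequences and coordinates are not used here, because no genome of this build was used. Results of some genes of the other lists are not reported here.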

Additional observations from a re-analysis of the deposited data

Results flagged for a closer look

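By Dixon's ratio, 1 embryo stood far from the remaining 4 of its group in 9 of 72 tests of a member in a group. For independent, normally distributed values chance gives about 1 in 20, here 3.6. The ratio was taken on normalized read counts rather than on the log2 scale, and the 72 tests share the same embryos. The number expected is therefore only a rough guide. In WT these were *GADD45A* in nc4 (150 normalized read counts, against 83.5 to 102 in the others), *ZMAT3* and *APAF1* in nc5 (174 against 82.4 to 99.4, and 82.6 against 50.7 to 58.8), *BAK1* and *CYCS* in nc2 (110 against 209 to 234, and 1430 against 1139 to 1169) and *BBC3* in nc1 (16.8 against 5.90 to 7.42, on 22 reads). In *SOX2* KO they were *GADD45G* in ko3 (23.3 against 7.79 to 10.7, on 20 reads), *BBC3* in ko5 (13.8 against 5.28 to 6.57, on 12 reads) and *CYCS* in ko4 (2840 against 823 to 1159, on 3457 reads).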

How the results depend on the processing

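Across the 10 alternatives the median log2 fold change of the members ranged from -0.15 with edgeR to 0.08 with the median log ratio. The count of 1 member called (0 higher, 1 lower) became 2 with the median log ratio and without a filter (1 higher, *TP53I3*, in both), 2 with quantile normalization (2 lower, *CASP6* and *FAS*) and 0 with the *RN18S1* covariate (0 lower). Leaving out 1 embryo gave 1 to 2 members called, 0 to 1 higher and 0 to 1 lower. Over all genes, 2024 were called (1792 higher, 232 lower). The count was 1185 with a pseudocount of 5 (1002 higher), 1076 with quantile normalization (629 higher, 447 lower), 692 with a mean of at least 10 (502 higher, fewer genes being tested) and 220 with the covariate (137 higher, 83 lower). It ran from 930 without ko5 to 3316 without ko4, with 754 to 3050 higher. The share of calls that were higher was 88.5%, and 58.5% with quantile normalization, 72.5% with a mean of at least 10 and 62.3% with the covariate. The 2 calls in the other lists (2 higher, 0 lower) became 0 with pseudocounts of 0.1 and 5, equal totals, a mean of at least 10 and the covariate (0 higher in each), 1 with quantile normalization (0 higher, 1 lower) and 1 with DESeq2 (1 higher), and edgeR called 1 higher and 2 lower. Leaving out 1 embryo gave 0 to 6 of them, 0 to 4 higher and 0 to 2 lower, with 6 without nc3 or ko4. The difference in the share of *RN18S1* reads ran from 4.58 percentage points without ko5 to 7.84 without nc3, with exact permutation p of 0.0317 without nc3 and 0.0397 without ko4, where it was 7.70. The cause of the changes was not tested. No paired analysis was possible because columns ko1 to ko5 do not carry the numbers that the labels give to the *SOX2* KO embryos. Of the 36 members 5 had a mean under 10, where the median SE over all genes was 0.59 on the log2 scale.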
